A study of Mus musculus with 12 samples.

Results

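Convergent clonotypes are TCRα chains whose identical amino acid sequence was written by many different nucleotide sequences. A clonotype was a combination of V segment, J segment and amino acids of the complementarity-determining region 3 (CDR3), and only in-frame CDR3 without a stop codon were used. Members were chosen by their number of distinct CDR3 nucleotide sequences over all libraries together, with a minimum of 5. Of 20615 in-frame clonotypes, 466 (2.26%) met this rule. Another 16470 (79.9%) had 1 nucleotide sequence and served for comparison, and 3679 had 2 to 4.

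The data were 12 TCRα libraries from CD4+CD8-Thy1.1+GFP+ thymocytes, that is, newly developed Treg of 3-week-old mice, with 100000 sorted cells per library and 1 mouse per library. The groups were 4 wt, 4 *Il2°* and 4 *Il15°* mice, and all were Rag2-Gfp Foxp3-Thy1a B6 mice that carried the Kaa Tcrb transgene and 1 null allele of *Tcra*. GFP from Rag2-Gfp marks cells that recently developed in the thymus, and Thy1.1 from Foxp3-Thy1a marks Foxp3-expressing cells. The transgene fixes the TCRβ chain, so that these repertoires vary in TCRα only and cannot be read as those of mice with free TCRβ chains. Each count was a unique molecular identifier (UMI), a random tag that marks 1 *Tcra* mRNA molecule. Libraries held between 7625 and 25980 UMIs, and between 94.5% and 96.6% of them were in frame. Fewer cells with a clonotype and less *Tcra* mRNA per cell cannot be told apart in these counts. The segment pairs used by the invariant chains of other T cells were scarce. TRAV11 or TRAV11D with TRAJ18, the pair of iNKT cells, held 89 UMIs in 5 clonotypes, and TRAV1 with TRAJ33, the pair of MAIT cells, held 119 UMIs in 14. The invariant CDR3 was not required, so that these clonotypes need not come from such cells. Of them, 0 were convergent, beside 2.26% of all clonotypes.

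TCRα chains are made by joining a V to a J segment in developing thymocytes. Exonucleases trim the ends and terminal deoxynucleotidyl transferase adds bases without a template, so that most of the diversity lies in the junction. The genetic code is degenerate, and separate rearrangements can therefore arrive at the same protein. Chains made in many ways are known to recur between individuals, and are then called public.

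The sequences of 4 convergent clonotypes show what this looks like. The first 3 were the clonotypes with the most sequences, and the last was named by both comparisons with *Il15°* mice. Each is written 5′ to 3′ from the codon of the conserved cysteine to that of the closing phenylalanine. Capitals mark the positions that differed among the printed sequences of that clonotype. The germline ends, from the GENCODE annotation of the mouse genome (GRCm38, the build the deposited data used under the name mm10), precede each set.
Germline TRAV4D-4 end: tgtgctgctgagg
Germline TRAJ15 start: cctaccagggaggcagagctctgatattt
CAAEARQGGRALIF sequence 1: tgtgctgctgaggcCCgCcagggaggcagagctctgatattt
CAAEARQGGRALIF sequence 2: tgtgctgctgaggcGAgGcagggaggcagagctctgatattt
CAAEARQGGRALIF sequence 3: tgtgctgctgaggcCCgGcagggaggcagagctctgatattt
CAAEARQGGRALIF sequence 4: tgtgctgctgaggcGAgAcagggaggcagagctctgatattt
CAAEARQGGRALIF sequence 5: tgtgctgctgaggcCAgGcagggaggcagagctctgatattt
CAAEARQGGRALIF sequence 6: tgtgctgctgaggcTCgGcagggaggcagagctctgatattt
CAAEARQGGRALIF sequence 7: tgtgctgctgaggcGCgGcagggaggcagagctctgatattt
Germline TRAV12N-3 end: tgtgctctgagtga
Germline TRAJ12 start: gggactggaggctataaagtggtcttt
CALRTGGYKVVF sequence 1: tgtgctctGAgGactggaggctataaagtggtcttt
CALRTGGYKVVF sequence 2: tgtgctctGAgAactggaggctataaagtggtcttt
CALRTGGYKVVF sequence 3: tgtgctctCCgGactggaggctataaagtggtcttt
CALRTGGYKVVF sequence 4: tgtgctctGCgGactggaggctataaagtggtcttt
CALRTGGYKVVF sequence 5: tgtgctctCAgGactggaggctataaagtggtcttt
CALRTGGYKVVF sequence 6: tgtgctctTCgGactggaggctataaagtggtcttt
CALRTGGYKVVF sequence 7: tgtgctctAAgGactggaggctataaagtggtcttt
Germline TRAV4D-3 end: tgtgctgctgagg
Germline TRAJ31 start: ggaatagcaataacagaatcttcttt
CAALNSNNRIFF sequence 1: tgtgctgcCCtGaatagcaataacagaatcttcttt
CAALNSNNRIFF sequence 2: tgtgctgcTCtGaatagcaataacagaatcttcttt
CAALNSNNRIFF sequence 3: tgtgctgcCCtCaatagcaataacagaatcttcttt
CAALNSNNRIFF sequence 4: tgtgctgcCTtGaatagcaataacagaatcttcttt
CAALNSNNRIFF sequence 5: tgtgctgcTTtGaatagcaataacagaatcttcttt
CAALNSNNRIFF sequence 6: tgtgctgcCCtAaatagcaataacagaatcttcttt
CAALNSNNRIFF sequence 7: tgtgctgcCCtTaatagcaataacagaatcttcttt
Germline TRAV13D-1 end: tgtgctatggaac
Germline TRAJ37 start: taacaggcaataccggaaaactcatcttt
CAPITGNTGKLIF sequence 1: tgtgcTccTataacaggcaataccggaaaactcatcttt
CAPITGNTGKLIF sequence 2: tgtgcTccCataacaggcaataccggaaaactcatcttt
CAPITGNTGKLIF sequence 3: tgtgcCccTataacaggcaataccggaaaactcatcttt
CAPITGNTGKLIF sequence 4: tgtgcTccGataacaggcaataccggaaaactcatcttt
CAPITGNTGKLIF sequence 5: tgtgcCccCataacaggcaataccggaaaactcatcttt
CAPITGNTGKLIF sequence 6: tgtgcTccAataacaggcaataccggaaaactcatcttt
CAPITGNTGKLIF sequence 7: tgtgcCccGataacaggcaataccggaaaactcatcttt

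The TRAV4D-4 TRAJ15 clonotype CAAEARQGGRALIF had 23 nucleotide sequences in 1248 UMIs. Its printed sequences held 217, 206, 157, 122, 98, 90 and 67 UMIs, and each occurred in at least 10 of the 12 libraries. The alanine at CDR3 position 5 was written with all 4 of its codons and the arginine at position 6 with all 6. The most frequent sequence made up only 17.4% of the clonotype. The TRAV12N-3 TRAJ12 clonotype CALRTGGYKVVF (18 sequences, 958 UMIs) was more uneven, since its leading sequence held 593 UMIs or 61.9%. Its leucine at position 3 used 6 of 6 codons and its arginine at position 4 used 4 of 6. In the TRAV4D-3 TRAJ31 clonotype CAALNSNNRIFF (18 sequences, 494 UMIs) the first 5 printed sequences held 108, 68, 67, 63 and 60 UMIs. All 4 alanine codons at position 3 and all 6 leucine codons at position 4 were used there. The TRAV13D-1 TRAJ37 clonotype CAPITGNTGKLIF held 78 UMIs, and its 7 sequences are all shown. They combined 2 alanine codons at position 2 with all 4 proline codons at position 3. In the first 3 clonotypes all letters downstream of the capitals were those of the germline J segment, and in the last all but the first of them were. All of these segments lie on the plus strand of chromosome 14, for example TRAV4D-4 at chr14:52990866-52991389, TRAV4D-3 at chr14:52899969-52900470, TRAJ31 at chr14:54187895-54187951, TRAJ15 at chr14:54204422-54204481 and TRAJ12 at chr14:54206553-54206610. The intervals are those of the annotated V and J segment genes, which encode part of the chain.

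The same pattern held over the convergent clonotypes. They had 3178 nucleotide sequences, of which 2712 were not the leading one of their clonotype. Of these, 55.2% differed from the leading sequence at 1 base and 44.7% at 2 or more. Differences lay only in the junctional codons in 72.7% of them, although these codons, a median of 2 per clonotype, were 16.0% of all codons. A further 13.5% differed only outside these codons and 13.8% in both. CDR3 codons 3, 4 and 5 held 25.1%, 33.0% and 26.6% of the 3807 changed codons. By residue, alanine accounted for 26.1% of the changed codons, glycine for 16.4% and arginine for 14.9%. Leucine, arginine and serine, which have 6 codons each, were 37.0% of the changed codons and 20.4% of all residues of these clonotypes. Arginine alone was 3.71% of the residues. Of the residues with 4 codons, proline was 7.14% of the changed codons and 1.37% of the residues. Alanine made up 15.1% of the residues and glycine 11.2%. Valine was near its share (4.70% against 4.22%) and threonine below it (2.34% against 6.35%). All sequences of a clonotype encode the same residues, so that residues with more codons had more ways to change. Residue shares were taken over the whole CDR3, whereas most changed codons were codons 3 to 5. The comparison of these shares is therefore a description.

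**Figure D1:**
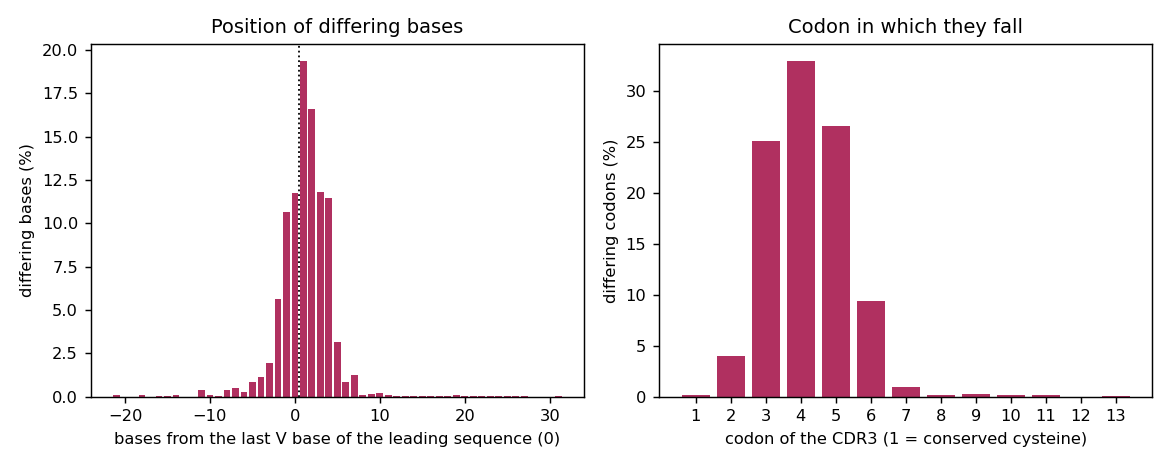
Left, percent of differing bases by distance from the last V base (position 0, dotted line just after it) of the leading sequence of each convergent clonotype; right, percent of changed codons by codon of the CDR3. Bases 1 and 2 after the V end held 19.4% and 16.6% of the differences, and codons 3 to 5 held most changed codons.

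Most sequences were not seen once only. Of the 3178, 403 (12.7%) had 1 UMI, 2086 (65.6%) occurred in at least 2 libraries, and 84 occurred in all 12. Among the 365 sequences that differed only outside the junctional codons, 21.4% had 1 UMI, against 12.3% of the 1971 that differed only within them. The leading sequence held a median of 44.1% of the UMIs of its clonotype (range 15.9% to 91.8%), and it held under 50% in 302 of 466. In a single library, the overall leading sequence was the most frequent one of a detected convergent clonotype, or tied for it, in 50.5% to 63.7% of cases.

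Clone size and spread over mice followed the number of sequences, which the rule fixed in part, so that these values are a description. Each clonotype with 5 sequences must have at least 5 UMIs, and larger clones have more chances to show a further sequence. The number of sequences ranged from 5 to 23 with a median of 6; 279 members had 5 or 6 and 58 had 10 or more. Convergent clonotypes had a median of 62 UMIs (range 7 to 4014), against 3 (1 to 84) for clonotypes with 1 sequence. Together they held 67045 of 199248 UMIs (33.6%). They occurred in a median of 10 libraries. All 12 libraries held 132 of them (28.3%), whereas 0 of 16470 clonotypes with 1 sequence reached 12. At least 6 libraries held 437 convergent and 48 single-sequence clonotypes, and 65.1% of the latter occurred in 1 mouse. Across the 466 members, the number of sequences and log10 UMIs had a Pearson correlation of 0.57. Clones with 5 or 6 sequences had a median of 44 UMIs, those with 7 to 9 had 96, and those with 10 or more had 235.5. Exceptions existed: TRAV4D-4 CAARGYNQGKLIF TRAJ23 had 15 sequences in 74 UMIs.

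**Figure D2:**
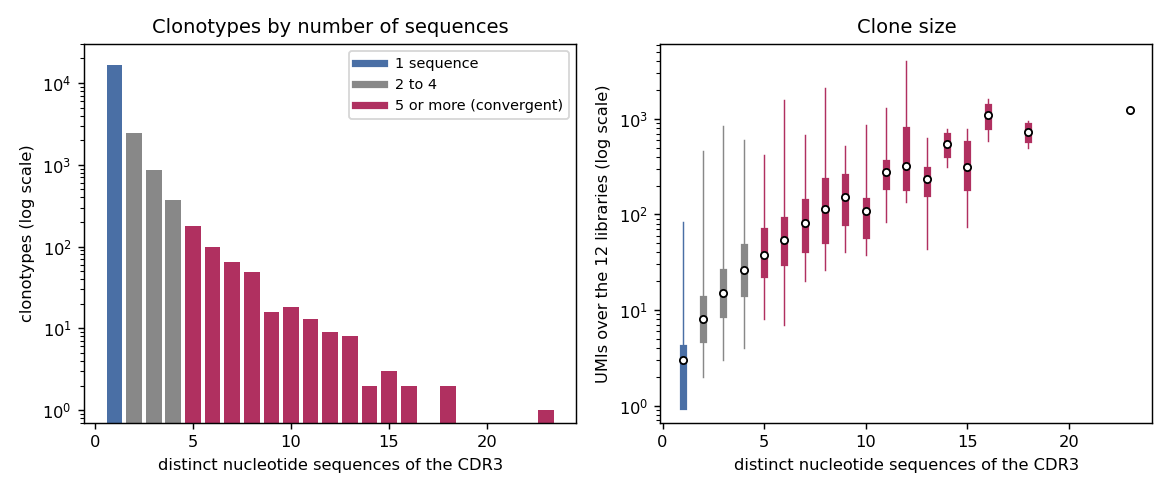
Left, number of clonotypes (log scale) by their number of distinct CDR3 nucleotide sequences; right, UMIs of these clonotypes over the 12 libraries (log scale), with the median (circle), the quartiles (thick line) and the range (thin line). From 16470 clonotypes with 1 sequence the number falls to 179 with 5 and 1 with 23, and the median clone size is 3 UMIs with 1 sequence and 1248 with 23.

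At the threshold, 179 clonotypes had 5 sequences and 369 had 4. The former had a median of 38 UMIs (8 to 417) in 8 libraries and the latter 26 UMIs (4 to 596) in 6. The largest clonotypes with 5 sequences were TRAV7-2 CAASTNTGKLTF TRAJ27 with 417 UMIs, TRAV4D-3 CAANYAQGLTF TRAJ26 with 343 and TRAV7-2 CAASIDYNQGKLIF TRAJ23 with 324. The largest with 4 were TRAV6D-6 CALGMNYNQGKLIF TRAJ23 with 596, TRAV7-2 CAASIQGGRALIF TRAJ15 with 469 and TRAV4N-3 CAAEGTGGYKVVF TRAJ12 with 431.

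Whether convergence recurred in mice not used to define it was asked by classing each clonotype from the other 11 libraries. Among clonotypes with 5 to 9 UMIs in the remaining library, those convergent elsewhere had 2.11 ± 0.340 nucleotide sequences (mean ± SD, n = 12 libraries) and those with 1 sequence elsewhere had 1.14 ± 0.12. The former were higher in 12 of 12 libraries (exact sign-flip permutation test, two-sided, p = 0.000488, the smallest that 12 libraries can give). At least 2 sequences were found in 71.9% ± 16.9 of the former and in 13.3% ± 11.2 of the latter. These comparisons rest on 951 and 1830 occurrences, with a mean of 6.75 and 6.14 UMIs. Clone size in the other 11 libraries was not matched, and its part in the difference was not tested. This comparison was added after the data had been seen. Libraries share clonotypes, so that here and below the p of a comparison over 12 libraries says how regularly a difference recurs and not how many independent clonotypes carry it.

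Features of the CDR3 were then compared by UMI within each library. Convergent clonotypes had 1.55 ± 0.0732 bases between the end of V and the start of J, and clonotypes with 1 sequence had 2.93 ± 0.147. The difference of −1.37 bases was negative in 12 of 12 libraries (exact sign-flip test, p = 0.000488, adjusted p = 0.000732 over 3 features). Junctions without such a base made up 39.2% ± 2.15 of convergent and 24.2% ± 1.52 of single-sequence UMIs, and junctions with over 6 made up 0.581% ± 0.208 and 8.78% ± 1.08. Among clonotypes of at least 5 UMIs over the 12 libraries the difference was −1.04. However, clone size moved with this feature. In each set the larger clones had the shorter junctions. Among clonotypes with 20 to 50 UMIs over the 12 libraries (161 convergent, 86 with 1 sequence) the order was reversed. There the convergent ones had 2.66 ± 0.118 bases and the others 1.82 ± 0.356, higher in 12 of 12 libraries (exact sign-flip test, p = 0.000488). Counting the bases that match neither germline end gave the same result. The values were 2.16 ± 0.0602 against 4.08 ± 0.169 over all clonotypes and 3.34 ± 0.197 against 2.22 ± 0.449 at 20 to 50 UMIs. With each clonotype counted once, convergent clonotypes also had more deposited bases in the other size classes that held both sets. The means were 3.26 (35 clonotypes) against 2.31 (554) at 10 to 19 UMIs. They were 3.81 (3) against 3.00 (3111) at 5 to 9 and 2.06 (84) against 0.4 (5) at 51 to 84. These other classes were not tested. The comparisons at 20 to 50 UMIs and with germline ends were added after the data had been seen.

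**Figure D3:**
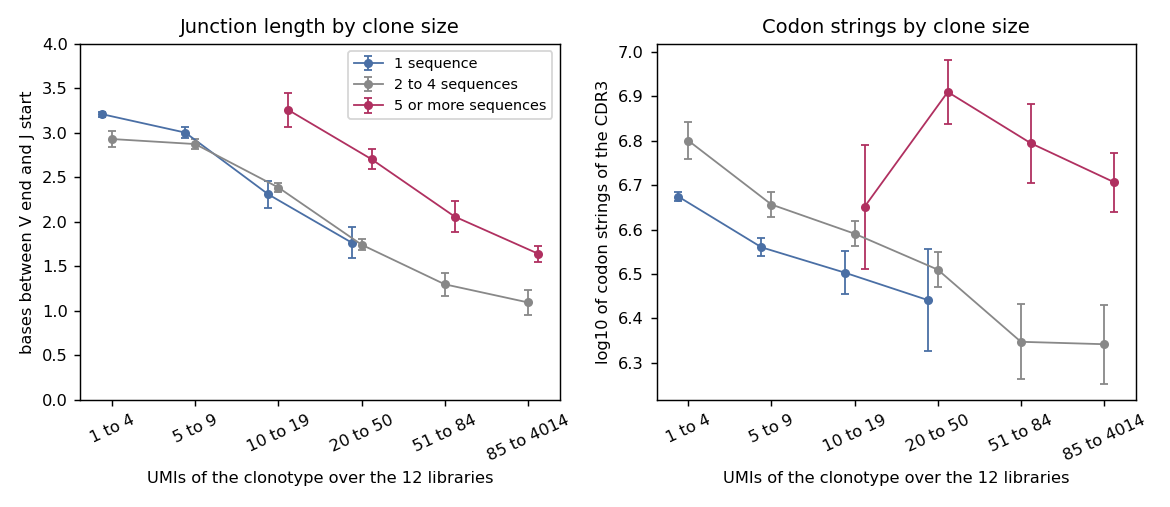
Mean bases between V end and J start (left) and mean log10 number of codon strings that encode the CDR3 (right) by clone size, with each clonotype counted once; bars are standard errors over clonotypes, which are not replicates, and classes under 20 clonotypes are not drawn. At 20 to 50 UMIs the convergent clonotypes average 2.70 bases and those with 1 sequence 1.77, while the convergent clonotypes above 84 UMIs average 1.64.

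The number of codon strings that could encode the CDR3 was larger for convergent clonotypes. Its log10 was 6.71 ± 0.0241 against 6.58 ± 0.0342, a difference of 0.124 that was positive in 12 of 12 libraries (exact sign-flip test, p = 0.000488, adjusted p = 0.000732). This order was the same at 20 to 50 UMIs, with 6.87 ± 0.0865 against 6.45 ± 0.211. The number of codon strings is the most nucleotide sequences a CDR3 can have, and members were chosen by their nucleotide sequences. The rule thus favours this order in part, and the difference is a description. CDR3 length differed little. It was 13.12 ± 0.0429 residues in convergent and 13.15 ± 0.0490 in single-sequence clonotypes (difference −0.0279, lower in 8 of 12 libraries, exact sign-flip test, p = 0.229). The direction of this difference depended on the definition of the sets. At 20 to 50 UMIs convergent clonotypes were longer by 0.346 residues in 12 of 12 libraries (exact sign-flip test, p = 0.000488). The spread was narrower in convergent clonotypes, which had 9 to 17 residues, against 4 to 52 in those with 1 sequence. Lengths of 13 and 14 residues made up 36.3% and 32.7% of convergent UMIs, and 29.7% and 29.1% of single-sequence UMIs.

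V segment use differed between the sets. Of the 15 TRAV segments that held at least 2% of either set, 14 (93.3%) differed (exact sign-flip tests over 12 libraries, Benjamini-Hochberg adjusted over segments), 10 higher and 4 lower in convergent clonotypes. TRAV4D-3 was most used, with 20.8% ± 4.54 of convergent and 11.6% ± 2.51 of single-sequence UMIs, and 111 of 466 convergent clonotypes carried it. TRAV4D-4 (9.50% ± 0.707 against 4.90% ± 0.702), TRAV7-3 (8.50% ± 1.47 against 3.76% ± 0.608), TRAV12N-3 (7.46% ± 1.18 against 3.32% ± 0.773) and TRAV10 (6.93% ± 2.08 against 1.76% ± 0.454) were higher in 12 of 12 libraries, each with an adjusted p of 0.000610 by the exact sign-flip test. TRAV4N-3, of the same subfamily as TRAV4D-3, did not pass the test (7.29% ± 0.857 against 6.78% ± 1.45, exact test, adjusted p = 0.156). TRAV3D-3 (0.417% ± 0.214 against 3.09% ± 0.414), TRAV14D-3/DV8 (0.176% ± 0.105 against 2.09% ± 0.369) and TRAV12D-2 (0.581% ± 0.275 against 2.31% ± 0.485) were lower in 12 of 12. Use by UMI can rest on 1 chain: a single clonotype held 90.9% of the convergent TRAV10 UMIs, and TRAV16 had 1 convergent clonotype. When each clonotype of a library counted once, TRAV10 and TRAV16 turned lower in convergent clonotypes (1.22% against 1.63% and 0.277% against 0.524%) and the other 12 of the 14 kept their direction. By this count TRAV4N-3 was higher in 12 of 12 libraries (7.75% against 6.21%, exact sign-flip test, p = 0.000488). By UMI at 20 to 50 UMIs it held 9.59% against 9.39% (exact sign-flip test, adjusted p = 0.895). At 20 to 50 UMIs, 10 of the 14 could be tested. Of these, 5 differed in the same direction, including TRAV4D-3 (26.5% against 7.87%) and TRAV12N-3 (11.5% against 0.967%), and TRAV7-2 was reversed (1.33% against 7.88%). The rest changed sign without passing the test. They were TRAV7-3 (3.71% against 5.33%), TRAV14-1 (0.931% against 2.32%), TRAV6D-6 (3.58% against 2.30%) and TRAV3D-3 (2.60% against 2.01%).

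J segment use differed as well. Of 22 TRAJ segments tested, 21 (95.5%) differed, 9 higher and 12 lower. TRAJ31 held 15.1% ± 2.55 of convergent UMIs and 5.71% ± 0.919 of single-sequence UMIs. TRAJ12 (10.9% ± 1.73 against 6.15% ± 0.720), TRAJ37 (8.0% ± 2.17 against 3.24% ± 0.759), TRAJ22 (7.02% ± 1.94 against 4.69% ± 0.772) and TRAJ15 (6.37% ± 0.997 against 4.26% ± 0.748) followed. TRAJ31, TRAJ12, TRAJ37 and TRAJ15 were higher in 12 of 12 libraries and TRAJ22 in 10 of 12. The largest deficits were those of TRAJ23 (2.78% ± 0.485 against 7.01% ± 1.17), TRAJ21 (2.02% ± 0.435 against 5.39% ± 0.711) and TRAJ13 (1.37% ± 0.257 against 3.63% ± 0.520), each lower in 12 of 12. TRAJ27 did not pass the test (exact sign-flip test, adjusted p = 0.0508). Here too, TRAV10 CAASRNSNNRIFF TRAJ31 held 40.8% of the convergent TRAJ31 UMIs. When each clonotype of a library counted once, 19 of the 21 kept their direction, among them TRAJ31 with 7.75% against 5.77%. TRAJ39 turned higher in convergent clonotypes (4.17% against 3.16%, exact sign-flip test, p = 0.00146) and TRAJ4 changed sign (2.86% against 2.81%, exact test, p = 0.836). TRAJ17 was higher in 7 of 12 libraries by this count (exact test, p = 0.759). At 20 to 50 UMIs, 7 of the 20 TRAJ segments that could be tested differed in the same direction, including TRAJ31 (8.03% against 2.18%), and 4 were reversed: TRAJ15, TRAJ39, TRAJ13 and TRAJ6. Others changed sign there without passing the test. They were TRAJ22 (4.82% against 6.37%), TRAJ17 (3.01% against 5.56%), TRAJ33 (2.67% against 1.08%) and TRAJ30 (2.44% against 2.28%). Among clonotypes of at least 5 UMIs, 15 of 17 TRAV and 19 of 20 TRAJ segments differed.

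**Figure D4:**
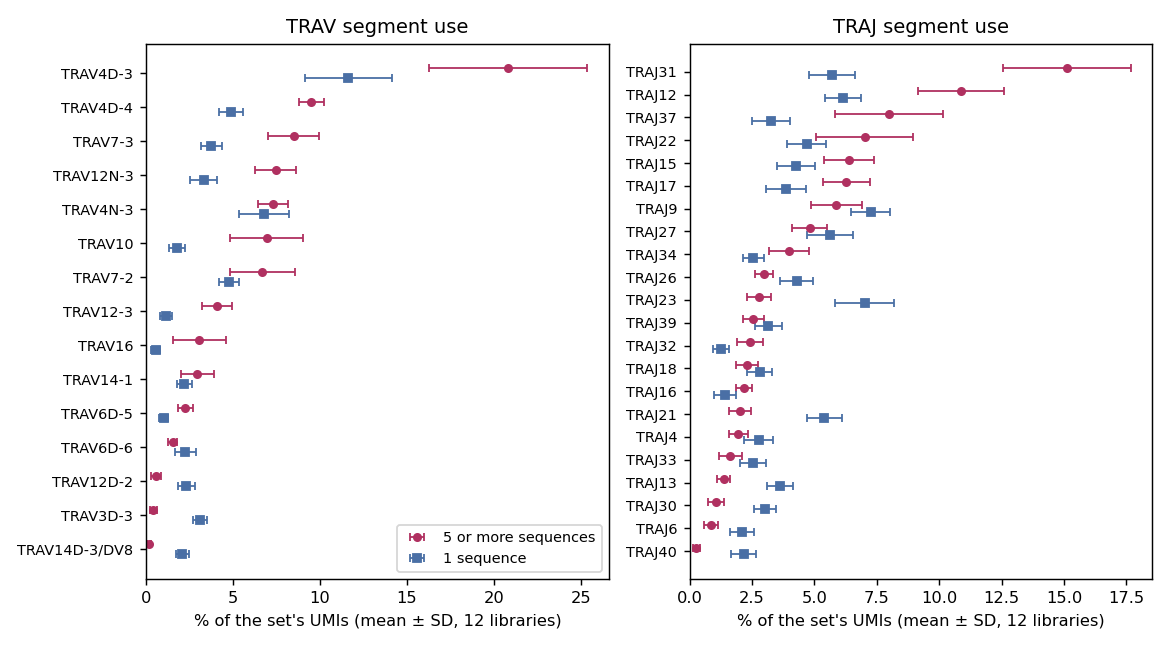
Percent of the UMIs of each set by TRAV (left) and TRAJ (right) segment in convergent clonotypes (circles) and clonotypes with 1 sequence (squares); points are means and bars are SD over 12 libraries. TRAV4D-3 and TRAJ31 lead the convergent set with 20.8% and 15.1%.

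Of the 10 clonotypes with the most sequences, 8 were found in all 12 libraries. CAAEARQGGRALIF made up 0.547%, 0.782%, 0.745% and 0.617% of all UMIs in the wt libraries, 0.783%, 0.477%, 0.683% and 0.643% in *Il2°* and 0.505%, 0.451%, 0.260% and 0.888% in *Il15°*. The 3 genotypes overlapped. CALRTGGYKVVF held 0.485%, 0.435%, 0.344% and 0.589% in wt, 0.512%, 0.268%, 0.215% and 0.380% in *Il2°* and 0.672%, 0.654%, 0.521% and 0.667% in *Il15°*. All *Il15°* values exceeded all *Il2°* values. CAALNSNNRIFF ranged from 0.0968% to 0.384% with a median of 0.243%. TRAV4D-4 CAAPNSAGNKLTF TRAJ17 had 16 sequences and held 0.809% ± 0.0405 in wt (n = 4), 0.855% ± 0.291 in *Il2°* and 0.698% ± 0.173 in *Il15°*. Of the remaining 6 of the 10, TRAV7-3 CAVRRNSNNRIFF TRAJ31 had 16 sequences and a median of 0.312%, and TRAV7-3 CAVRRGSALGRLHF TRAJ18 had 15 and 0.391%. TRAV6D-7 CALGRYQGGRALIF TRAJ15 had 15 and 0.150%, and TRAV7D-6 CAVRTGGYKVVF TRAJ12 had 14 and 0.328%. TRAV4D-3 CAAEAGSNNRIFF TRAJ31 had 14 and held 0.177%, 0.209%, 0.325% and 0.167% in wt, 0.00753%, 0%, 0.0910% and 0.0525% in *Il2°* and 0.178%, 0.174%, 0.0744% and 0.280% in *Il15°*. All *Il2°* values lay below all wt values (log2 fold change −2.46, SE 0.783, edgeR, adjusted p = 0.265). The already named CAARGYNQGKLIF, with 0.0362%, was absent from 3 libraries, and a count of 0 allows up to 0.0188% to 0.0279% there (3 UMIs, counting error only).

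The clonotype with the highest mean share was not the one with the most sequences. TRAV10 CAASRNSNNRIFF TRAJ31 had 12 sequences and held 1.76% ± 0.539 of a wt library (n = 4), 2.30% ± 1.01 in *Il2°* and 2.29% ± 0.444 in *Il15°*. Its lowest and highest values were 1.09% and 3.76%. The 15-residue clonotype of TRAV16 and TRAJ12 had 8 sequences and ranged from 0.376% to 1.65%. Next came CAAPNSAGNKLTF, from 0.549% to 1.26%.

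The study asked how IL-2 and IL-15 bear on the repertoire of newly developed Treg, and the share of convergent clonotypes was compared between genotypes. They held 34.6%, 33.9%, 35.8% and 34.8% of all UMIs in wt libraries, 35.7%, 30.02%, 30.4% and 32.7% in *Il2°* and 35.3%, 32.1%, 32.4% and 34.5% in *Il15°*. The groups overlapped. The means were 34.8% ± 0.775, 32.2% ± 2.64 and 33.6% ± 1.56 (n = 4 each). *Il2°* differed from wt by −2.57 percentage points (exact Mann-Whitney test, two-sided, p = 0.2, adjusted p = 0.514 over 3 pairs), *Il15°* from wt by −1.19 (exact test, p = 0.343) and *Il15°* from *Il2°* by 1.38 (exact test, p = 0.686). Groups of 4 cannot give a p below 0.0286. All 3 genotypes contained 435 of the 466 members. All 4 libraries held 284 of them in wt, 229 in *Il2°* and 206 in *Il15°*, and 1, 7 and 23 were not detected in the respective genotype. The number of UMIs differed between the groups, and its part in these counts was not tested.

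At an equal depth of 7625 UMIs, a detected convergent clonotype had 2.29, 2.21, 1.96 and 2.15 sequences in wt, 2.01, 2.16, 2.18 and 2.14 in *Il2°* and 2.18, 1.79, 1.75 and 2.02 in *Il15°*. The means were 2.15 ± 0.140, 2.12 ± 0.0789 and 1.94 ± 0.203. The differences from wt were −0.0298 for *Il2°* (exact Mann-Whitney test, p = 0.686) and −0.216 for *Il15°* (exact test, p = 0.2, adjusted p = 0.6). *Il15°* differed from *Il2°* by −0.186 (exact test, p = 0.486). The length of the convergent CDR3 was 13.14 ± 0.0378, 13.10 ± 0.0388 and 13.11 ± 0.0501 residues in wt, *Il2°* and *Il15°*, and the junctions had 1.60 ± 0.0528, 1.56 ± 0.0752 and 1.5 ± 0.0682 bases.

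**Figure D5:**
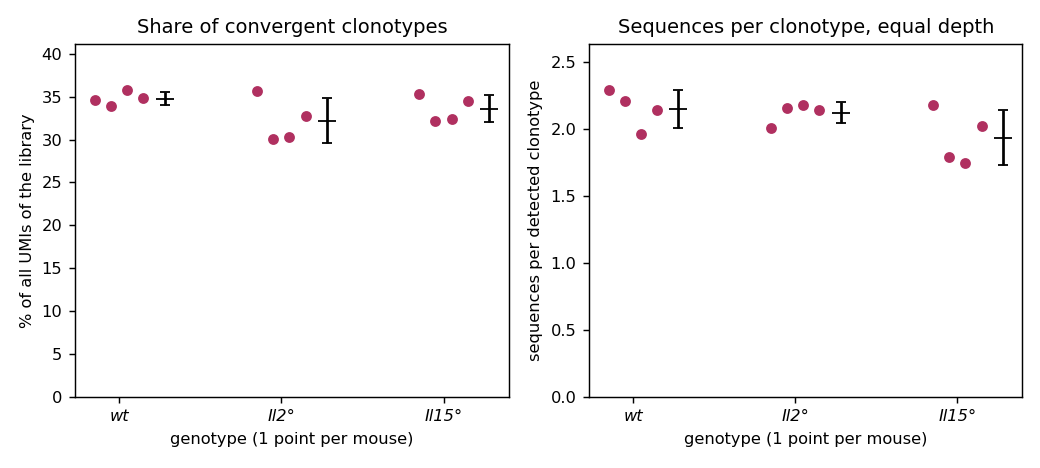
Percent of all UMIs in convergent clonotypes (left) and nucleotide sequences per detected convergent clonotype at 7625 UMIs (right) for the 4 mice of each genotype, with mean ± SD beside them. The shares lie between 30.02% and 35.8% and the genotypes overlap in both plots.

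Single convergent clonotypes were compared in an edgeR fit over all clonotypes that reached 5 UMIs in 4 or more of the 8 libraries compared, a filter that 256 members passed for *Il2°* against wt, 269 for *Il15°* against wt and 207 for *Il15°* against *Il2°*. Smaller members were not tested. At an adjusted p under 0.05, 0 members were called for *Il2°* against wt, as were 0% of the 464 clonotypes tested, and 0 for *Il15°* against wt (0% of 478). DESeq2 called 12 and 2 members, beside 16 of 464 (3.45%) and 6 of 478 (1.26%) of all tested clonotypes, and limma 0 and 0, beside 0% and 0.628%. For *Il2°* against wt, DESeq2 gave no adjusted p for 306 of the 464. The 3.45% is thus not a share of those with an adjusted p and cannot be set against the 1.26%. Without adjustment, 30 members had p under 0.05 for *Il2°* against wt, 10 higher (3.66% of all tested clonotypes were) and 20 lower (5.6%), 43 or 9.27% of all tested clonotypes being past it. For *Il15°* against wt they were 16, 5 higher (1.67% of all) and 11 lower (2.51%), beside 4.18% of all. The median log2 fold change over the members tested was −0.09 and −0.21, and over all clonotypes tested 0.10 and −0.17. Members whose groups did not overlap numbered 27 of 256 (8.19% of all tested) and 16 of 269 (5.44%).

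For *Il15°* against *Il2°*, 1 member was called (0.276% of 362 clonotypes), and 24 had an unadjusted p under 0.05 (9.39% of all), 11 higher (4.14%) and 13 lower (5.25%). The groups of 20 of 207 members did not overlap (8.56% of all). The called member was TRAV16N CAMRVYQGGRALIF TRAJ15, named after its values were seen, with 7 sequences. It held 0.354%, 0.627%, 0.780% and 0.511% in *Il2°*, 0.211%, 0.174%, 0.130% and 0.140% in *Il15°* and 0.346%, 0.456%, 0.119% and 0.196% in wt. Its log2 fold change of *Il15°* over *Il2°* was −1.92 (SE 0.389, edgeR, adjusted p = 0.0445). DESeq2 called 4 members, beside 6 of 362 (1.66%) of all, and limma 0 (0%). The call was lost without *Il2°* replicate 2, 3 or 4 and without any of the *Il15°* replicates. Without *Il15°* replicate 1 the 1 clonotype called was not convergent. Without *Il15°* replicate 2 the 1 clonotype called was higher in *Il15°* and so a different one.

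The members with the largest fitted change among those past an unadjusted p of 0.05 with separate groups held 48 to 128 UMIs in all. They were picked for their difference, and in each the 4 libraries of the group where it was high were enough to pass the filter. Their values are therefore a description and no evidence of a change. TRAV7-2 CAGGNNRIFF TRAJ31 held 16, 20, 14 and 7 UMIs in wt libraries. It held 2, 0, 0 and 0 in *Il2°* and 2, 10, 17 and 6 in *Il15°* libraries. TRAV4D-3 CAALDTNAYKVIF TRAJ30 held 29 UMIs over the wt and 1 over the *Il2°* libraries. The TRAV4D-3 TRAJ32 clonotype with a 14-residue CDR3 and 7 sequences held 14, 30, 17 and 9 UMIs in wt and 0, 3, 3 and 0 in *Il2°*. Its *Il15°* libraries held 19, 10, 2 and 8. In *Il15°* libraries TRAV7-2 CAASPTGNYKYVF TRAJ40 held 0, 0, 0 and 1 UMI, against 12, 7, 9 and 9 in wt and 1, 6, 5 and 6 in *Il2°*. TRAV13D-1 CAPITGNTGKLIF TRAJ37, whose sequences are printed above, held 6, 14, 12 and 15 UMIs in wt. The *Il2°* libraries held 8, 5, 7 and 8 and the *Il15°* libraries 1, 0, 0 and 2. The TRAV4D-3 TRAJ39 clonotype with a 14-residue CDR3 and 6 sequences was at 11, 11, 23 and 10 UMIs in wt mice. It was at 1, 0, 1 and 3 in *Il2°* and 0, 0, 0 and 6 in *Il15°* mice. In the other direction, TRAV12N-3 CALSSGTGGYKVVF TRAJ12 held 20, 10, 33 and 23 UMIs in *Il15°*, 1, 6, 8 and 2 in *Il2°* and 11, 7, 5 and 2 in wt. TRAV4D-3 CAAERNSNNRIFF TRAJ31 held 10, 10, 8 and 15 in *Il15°*, 2, 0, 0 and 2 in *Il2°* and 5, 4, 25 and 26 in wt. None of these passed the adjusted threshold (edgeR, adjusted p from 0.200 to 0.977).

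Segment use within the convergent clonotypes varied between genotypes without passing an adjusted test. TRAV4D-3 held 23.7%, 22.0%, 30.6% and 24.0% of convergent UMIs in wt, 15.7%, 14.0%, 17.8% and 18.6% in *Il2°* and 23.6%, 17.1%, 20.1% and 22.5% in *Il15°*. All *Il2°* values were below all wt values. The same held in clonotypes with 1 sequence, where TRAV4D-3 had 13.1%, 12.4%, 14.2% and 12.6% in wt and 10.3%, 7.43%, 8.78% and 8.53% in *Il2°*. Such separation of *Il2°* from wt occurred for 4 of 15 TRAV segments (26.7%), namely TRAV4D-3, TRAV7-2 (8.11% ± 1.81 against 5.23% ± 0.901), TRAV14-1 (3.09% ± 0.229 against 2.13% ± 0.437) and TRAV12D-2 (0.385% ± 0.107 against 0.838% ± 0.299), each with an exact Mann-Whitney p of 0.0286 and an adjusted p of 0.107. When each clonotype counted once, 1 of the 15 was separate. It occurred for 1 of 22 TRAJ segments (4.55%), TRAJ37, with 6.03% ± 0.471 in *Il2°* and 9.97% ± 2.12 in wt (exact test, adjusted p = 0.210). Between *Il15°* and wt, 0 of 15 TRAV (0%) and 2 of 22 TRAJ segments (9.09%) were separate, and between *Il15°* and *Il2°* 1 of 15 (6.67%) and 3 of 22 (13.6%). These genotype comparisons of segments were added after the data had been seen. A p of 0.0286 is the smallest that groups of 4 can give. An adjusted p under 0.05 was therefore out of reach unless many more segments had been separate.

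The V region of mouse *Tcra* holds copies of many segments, and assignment of short sequences among copies is uncertain. The CDR3 and J segment of 347 of the 466 convergent clonotypes also occurred under another V segment, and 71 shared them with another member. When copies were merged by name, 501 clonotypes were convergent with 37.0% of UMIs. The size of the set also depended on how sequences were counted. Merging near-identical sequences left 393 members with 24.5% of UMIs, against 466 with 33.6% by the main rule. Counting only sequences with at least 2 UMIs gave 350 with 30.8%, and downsampling to the smallest library gave 342 with 30.8%. A minimum of 4 sequences gave 835 with 42.0%, and a minimum of 8 gave 123 with 18.8%.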

How the data were processed

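TCRα libraries of 12 mice were analysed. The authors filtered reads at a quality above 20 and used pRESTO to build a consensus for each UMI read 2 or more times, and MiXCR to align and assemble these. Tool versions are not given in the sources used here. The deposited tables, in VDJtools format, give the UMI count of each nucleotide sequence, the fraction of the library, the CDR3, the V and J segments and, as other columns, the last V and first J base. Counts were used, and all shares were recomputed from them. The submitters' processing notes name the build mm10. A clonotype was defined by V segment, CDR3 amino acids and J segment, as in the study. The members and lists were chosen with earlier results of these data known. In 283 in-frame UMIs the junction positions lay outside the CDR3, and their junction was left out.

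Bases between V end and J start were counted as deposited (0 where the segments overlapped). MiXCR aligns with mismatches, so germline ends of 94 V and 43 J segments (GENCODE), covering 96.5% of in-frame UMIs, were matched exactly as an alternative. Features and segments were compared per library with exact sign-flip tests and genotypes with exact Mann-Whitney tests (Python 3.11.15), and P values were adjusted by Benjamini-Hochberg. Single clonotypes, out-of-frame ones included, were fitted with edgeR 4.0.16 (quasi-likelihood, TMM), and DESeq2 1.42.0 and limma 3.58.1 (log2 of percent + 0.01) were alternatives. Scripts were tested on simulated data. Named were the 10 members with most sequences, the 3 with the highest mean share, the 3 with the largest change per genotype pair among those with an unadjusted p under 0.05 and no overlap, the 3 largest clonotypes with 5 and with 4 sequences, and, per segment type, the 5 most used and the 3 most different in each direction. Replicate libraries of a genotype differed by more than sampling noise (chi-square per degree of freedom 2.73 to 9.31 over 18 pairs), and each was counted as 1 sample. The number of UMIs (7625 to 25980) limits what is seen of small clones.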

Additional observations from a re-analysis of the deposited data

Results flagged for a closer look

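In 147 groups of 4 libraries, the highest or lowest library was compared with the other 3 by Dixon's test, and 12 groups (8.16%) had a library that stood apart. Chance alone flags about 1 in 20 groups, but the 8.16% cannot be set against this rate. Where 1 library of a group holds a value and the others 0, the ratio is always 1 and the group is flagged. Clonotypes picked for low values in 1 genotype were among those examined. Convergent clonotypes of wt replicate 1 had a log10 of 6.73 codon strings, with 6.71 in each of the others. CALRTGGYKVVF held 0.521% in *Il15°* replicate 3 against 0.654% to 0.672%. Other clonotypes stood apart by being seen in 1 library of a group only: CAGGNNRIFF with 0.0151% in *Il2°* replicate 1, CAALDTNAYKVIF with 0.00650% in *Il2°* replicate 3, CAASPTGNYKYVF with 0.00538% in *Il15°* replicate 4 and the 14-residue TRAV4D-3 TRAJ39 clonotype with 0.0323% in *Il15°* replicate 4. The last was also high in wt replicate 3, at 0.144%, the rest of its group lying between 0.0423% and 0.0577%. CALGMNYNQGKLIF, with 4 sequences and thus no member, held 0.498% in *Il2°* replicate 4 against 0.263% to 0.301%. Of the segments, TRAV4D-4 held 10.6% of convergent UMIs in *Il2°* replicate 2 against 8.72% to 8.96%. TRAV4N-3 held 6.19% in wt replicate 3 against 7.55% to 7.60%, and 8.95% in *Il15°* replicate 3 against 7.37% to 7.58%. TRAJ13 held 1.57% in wt replicate 1 against 1.34% to 1.36%.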

How the results depend on the processing

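Shares by genotype kept their direction under every alternative and missed the threshold, except *Il15°* minus wt, which was 0.0192 points with a minimum of 8 sequences. Leaving out a library gave −3.74 to −1.84 points for *Il2°* minus wt, −1.75 to −0.701 for *Il15°* minus wt and 0.655 to 2.56 for *Il15°* minus *Il2°*. Sequences per member gave −0.0933 to 0.0170, −0.298 to −0.153 and −0.268 to −0.123, the first turning positive without *Il2°* replicate 1 (0.00883) or wt replicate 1 (0.0170). With a library left out, the exact Mann-Whitney test cannot give a p below 0.0571, so it could not pass the threshold. The share of *Il2°* minus wt had this p without *Il2°* replicate 1, where all *Il2°* values lay below all wt values. Same-numbered libraries did not vary together (correlations −0.169 to 0.173, over 0.1 in 1 of 12), so the numbers do not pair. With the number as a block, the share differed by −2.57 points for *Il2°* minus wt (exact sign-flip p = 0.25) and 0 single clonotypes were called in each comparison. The sign-flip test of 4 differences cannot give a p below 0.125.

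The CDR3 length difference was −0.0625 residues with 4 or more sequences (exact p = 0.00391), −0.100 with V copies merged (exact p = 0.00146) and −0.0557 with each clonotype counted once (exact p = 0.0278). It turned higher with sequences of at least 2 UMIs (0.00148), near-identical sequences merged (0.0533, exact p = 0.0337), members from the other 11 libraries (0.0259), at least 5 UMIs (0.0320) and 20 to 50 UMIs (0.346). The junction was longer at 20 to 50 UMIs by 0.839 deposited or 1.12 germline-based bases, and otherwise shorter in every alternative. Those other alternatives did not match the sets for clone size. At 10 to 19 UMIs, with each clonotype counted once, the junction was longer too (3.26 against 2.31 bases). Codon strings kept their direction under all, and the counts of TRAV and TRAJ segments that differed stayed within 1.5 times. Such counts do not say which segments differed, in which direction or of how many. At 20 to 50 UMIs, 13 of 23 TRAV and 15 of 24 TRAJ segments differed. Of those that differed in the main comparison, 1 TRAV and 4 TRAJ segments were reversed there past the test. Further segments of both types changed sign there without passing it. The cause of the reversals was not tested beyond clone size.

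For single clonotypes, DESeq2 called 16, 6 and 6 for *Il2°* against wt, *Il15°* against wt and *Il15°* against *Il2°* (306 of the 464 adjusted p of the first were not given), limma 0, 3 and 0, V copies merged 1, 0 and 2, and presence in 2 of 8 libraries 0, 0 and 0. Without a library, 0 to 1 was called for the last pair and 0 for the others. Counting each clonotype once, separate TRAV segments numbered 1 in place of 4 for *Il2°* against wt and 2 in place of 1 for *Il15°* against *Il2°*, and TRAJ segments 4 in place of 2 for *Il15°* against wt and 1 in place of 3 for *Il15°* against *Il2°*.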
